A study of Rattus norvegicus with 9 samples.

Results

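miR-140-3p and miR-455-5p, miRNAs enriched in chondrocytes, were examined in rat serum. They were found by name, without the rat prefix, and are 2 of the 567 mature miRNAs in the count matrix. The other arm of each hairpin, miR-140-5p and miR-455-3p, was in the same matrix and is given as context. The pair was chosen by its members' role in cartilage and by the low late-stage counts of miR-140-3p against the controls, which were already known. Its comparisons that involve the late group are therefore given as descriptions without a test.

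Serum small RNA of adult male wild-type Wistar rats was sequenced in 9 libraries, 3 for each of 3 groups. The early group (EPD) received rotenone, an inhibitor of mitochondrial complex I, at 2.0 mg per kg per day by intraperitoneal injection for 10 days. The late group (LPD) received it for more than 40 days, up to a terminal stage, and the third group is named Control. Rotenone is used here to model Parkinson's disease. All 9 samples carry the same treatment label, the controls too, and what the controls received is not given by any label.

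miR-140 and miR-455 are hallmarks of cartilage. miR-140 is processed from an intron of Wwp2 and miR-455 from an intron of Col27a1, a fibrillar collagen gene. Both hairpins are induced by SOX9, the transcription factor that specifies chondrocytes. miR-140 represses the aggrecan-degrading protease ADAMTS5 and the histone deacetylase HDAC4, and mice without it have short bones and early osteoarthritis-like change. Both arms of miR-455 have been reported to repress EPAS1, a hypoxia-inducible factor that drives cartilage breakdown. Serum collects RNA from all tissues, so these data do not locate the source of either miRNA. Fewer releasing cells and less RNA released per cell cannot be told apart.

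The sequences show how the 2 hairpins differ and where their matched arms lie. Each count was assigned to its arm by name. The member miR-455-5p had no mature entry in the reference used, so its sequence and seed are not given. Of the 4 arms, 3 matched a mature entry in RefSeq (build GRCr8, not the build of the deposited counts), printed 5′ to 3′ with the seed, bases 2 to 8, in capitals.
miR-140-3p: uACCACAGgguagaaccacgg
miR-140-5p: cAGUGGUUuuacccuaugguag
miR-455-3p: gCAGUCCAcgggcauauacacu
The hairpins follow, with these mature arms in capitals.
Mir140: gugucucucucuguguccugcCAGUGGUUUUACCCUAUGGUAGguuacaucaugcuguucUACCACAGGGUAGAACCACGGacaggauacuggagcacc
Mir455: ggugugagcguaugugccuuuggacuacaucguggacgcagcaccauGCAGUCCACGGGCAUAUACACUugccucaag

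The Mir140 hairpin has 99 bases at chr19:52375293-52375391 on the plus strand in GRCr8, inside the span of Wwp2. The Mir455 hairpin has 78 bases at chr5:81704834-81704911 on the plus strand, inside the span of Col27a1. The 3 seeds differ from each other, and 0 other entries among the 693 mature names searched share any of them. A read of these arms is thus set apart from other listed miRNAs already by its seed. miR-140-3p is known to occur with shifted 5′ ends, which have other seeds. The deposited counts give 1 value per mature name and do not separate such forms.

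Depth and a single library bear on what follows. Control and EPD libraries held 1108170 to 1668810 counts, and LPD libraries 305019, 209895 and 132609. By estimate, many counts stood for each molecule in LPD: 36.7, 49.1 and 12.3 counts per estimated molecule, against 0.859 to 2.73 elsewhere. This estimate takes the number of molecules, drawn from the mean Control and EPD profile, that would leave as many miRNAs detected as were seen. It assumes that the LPD profile resembles theirs, and as an estimate it can fall under 1. Control 2 stood apart, with 44.3% of its counts in the hepatocyte miRNA miR-122-5p, against 1.07 to 5.14% in the other 8 libraries. The 5 red cell miRNAs checked (miR-451-5p, miR-486, miR-144-3p, miR-144-5p and miR-16-5p) and the 5 platelet and leukocyte miRNAs (miR-223-3p, miR-126a-3p, miR-150-5p, miR-142-3p and miR-142-5p) were detected in every group.

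miR-140-3p was among the most abundant miRNAs of Control serum. It ranked 4th in Control 1 and 3rd in Control 3 by counts, but 15th in Control 2. It took 5.53% of the counts in Control 1 (95% Wilson interval 5.49 to 5.57%), 1.03% in Control 2 (1.01 to 1.05%) and 5.20% in Control 3 (5.17 to 5.24%). In EPD its share was 2.35% (2.32 to 2.37%), 2.81% (2.78 to 2.84%) and 1.96% (1.94 to 1.98%), at ranks 12, 7 and 11. In LPD its share was 0.365% (0.344 to 0.387%), 0.227% (0.207 to 0.248%) and 0.158% (0.138 to 0.180%), at ranks 36, 42 and 58. Reads are not independent molecules here, so the intervals cover counting error only. Every LPD share lay below every other share, while those of Control and EPD overlapped through Control 2. With miR-122-5p left out of the totals, Control 2 rose to 1.85%, still under the lowest EPD share on that scale, 2.05%.

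miR-455-5p was far rarer. Its counts were 384, 49 and 405 in Control, 96, 66 and 28 in EPD, and 20, 0 and 0 in LPD. They amounted to 0.0347, 0.00418 and 0.0263% of the Control libraries and 0.00575, 0.00581 and 0.00175% of the EPD libraries. Control 1 and Control 3 were high, and Control 2 fell among the EPD values. With miR-122-5p left out of the totals, Control 2 rose to 0.00751%, above the highest EPD share on that scale, 0.00589%. The overlap of Control and EPD thus depends on the scale. In LPD 1 the 20 counts were 0.00656% of the library (Wilson interval 0.00424 to 0.0101%). In LPD 2 and LPD 3 the absence of counts allows, at 3 estimated molecules, levels of up to 662 and 244 CPM (counts scaled to a common library size). Both are above the Control mean of 203 CPM. At 3 counts the bounds would be 13.5 and 19.8 CPM, below the lowest control, 62.6 CPM. Which bound applies depends on the molecule estimate.

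**Figure D1:**
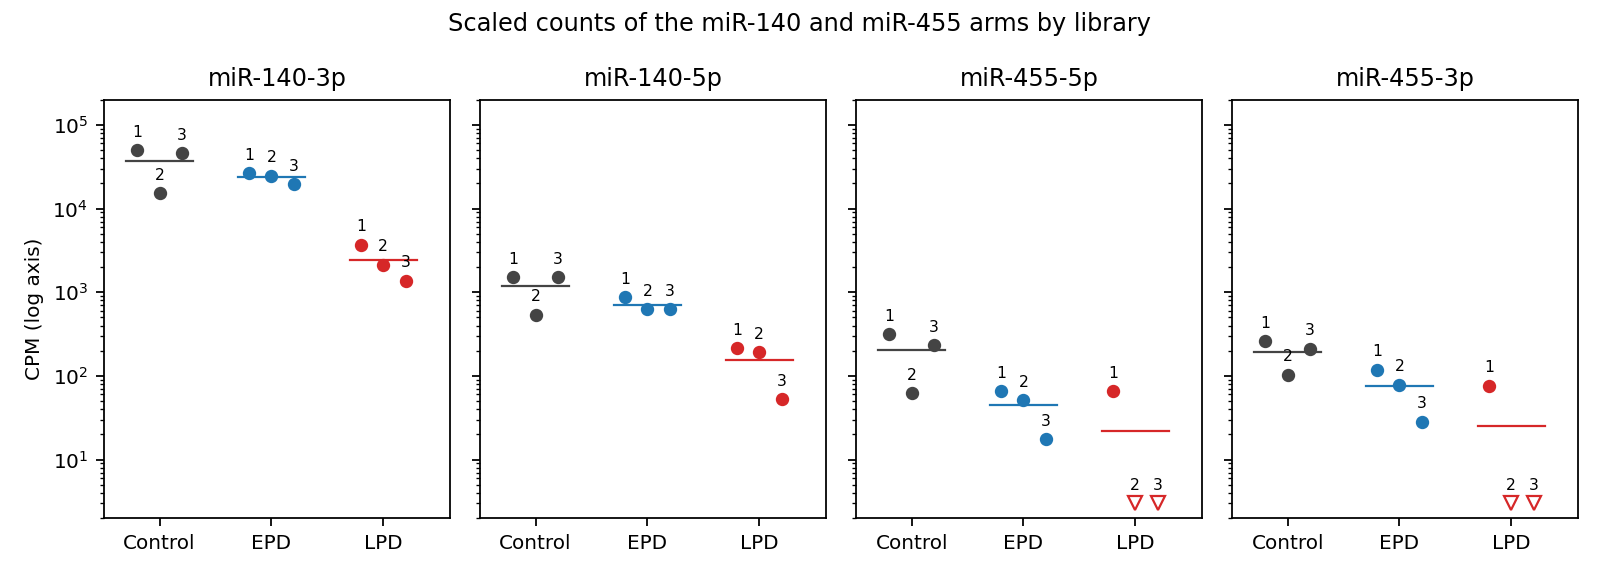
Scaled counts (CPM, log axis) of the 4 arms in each library, with the replicate number above each point and a line at the group mean. Open triangles at the bottom stand for libraries with 0 counts. miR-140-3p lies at 15406 to 49888 CPM in Control and at 1378 to 3690 in LPD, and in every panel Control 2 is the lowest control.

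On the scale of CPM, with library sizes scaled by TMM, miR-140-3p stood at 49888, 15406 and 46243 in Control and at 26738, 24633 and 19725 in EPD. The means were 37179 ± 18944 and 23699 ± 3599 CPM (SD, n = 3 each). All 3 EPD libraries lay below Control 1 and Control 3 and above Control 2. The log2 fold change of EPD against Control was -0.65 (SE 0.48), which did not pass edgeR's quasi-likelihood test (Benjamini-Hochberg adjusted p = 0.995 over 294 miRNAs). It was -0.34 without Control 1, -0.89 without Control 2 and -0.43 without Control 3, and passed in none of 19 alternatives (adjusted p from 0.627 to 0.999). The same controls entered the comparison from which miR-140-3p was known.

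miR-455-5p stood at 313, 62.6 and 234 CPM in Control and at 65.6, 50.8 and 17.6 in EPD. The means were 203 ± 128 and 44.7 ± 24.6 CPM, a 4.54-fold difference. On this scale the groups overlapped only in that EPD 1 exceeded Control 2. The log2 fold change was -2.18 (SE 1.41), which did not pass (edgeR, adjusted p = 0.995), and over 18 alternatives the adjusted p ran from 0.127 to 0.999. At this spread a difference of that size was not resolved. Neither of the 2 members was called in EPD against Control, where 0.00% of the 294 tested miRNAs were called. Before adjustment 3.74% of them had p under 0.05, and 8.16% lay lower in EPD without overlap, neither member among them. The count of calls was 1 with DESeq2, miR-199a-3p, and 0 with limma-voom.

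Each hairpin's other arm gave a second reading. miR-140-5p had 1511, 539 and 1527 CPM in Control against 866, 630 and 627 in EPD (log2 fold change -0.75, SE 0.57, edgeR adjusted p = 0.995). miR-455-3p had 260, 103 and 212 CPM against 118, 78.6 and 28.3 (-1.35, SE 1.36, edgeR adjusted p = 0.995). As with the members, Control 2 was the lowest control in both, and all 3 EPD libraries lay below the other controls. With miR-122-5p left out of the totals, miR-455-3p held 0.0124% in Control 2, above the highest EPD share, 0.0105%. On that scale miR-140-5p held 0.0647% in Control 2, below the lowest EPD share, 0.0652%. Control 2 held 32.1% of the mean of the other controls for miR-140-3p, 35.5% for miR-140-5p, 22.9% for miR-455-5p and 43.8% for miR-455-3p. Arms of 1 hairpin come from the same transcript and libraries and are no separate evidence.

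Markers of connective tissue had lower summed levels in EPD, without overlap of the sums. Singly, miR-143-3p and miR-199a-3p lay lower in EPD than in Control without overlap, as did 8.16% of the 294 tested miRNAs. miR-145-5p and miR-214-3p overlapped. The summed CPM of miR-143-3p, miR-145-5p, miR-199a-3p and miR-214-3p, found in fibroblasts and smooth muscle, was 61102 to 83782 in Control, 28775 to 38072 in EPD and 45873 to 51261 in LPD. All 4 were detected in every group and 0 of the 4 passed edgeR's test in EPD against Control. miR-199a-3p had 56475, 26156 and 34485 CPM in Control and 11222, 11057 and 13567 in EPD, without overlap (log2 fold change -1.71, SE 0.33, edgeR adjusted p = 0.179). It was lower past the threshold in 3 of 19 alternatives: with DESeq2 (adjusted p = 1.3e-04), among miRNAs counted in all 9 libraries (edgeR, 0.0268) and without Control 2 (edgeR, 0.0483). Over all 19 its adjusted p ran up to 0.995. The part of these cells in the values of miR-140 and miR-455 was not tested.

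The ratio of the 2 members within a library does not depend on library scaling. miR-140-3p had 160, 246 and 198 counts for each count of miR-455-5p in Control, and 408, 484 and 1122 in EPD. The groups did not overlap. The mean log2 ratio (0.5 counts added) was 7.62 ± 0.31 in Control and 9.23 ± 0.77 in EPD, a difference of 1.60, or 3.04-fold. An exact two-sided permutation test gave p = 0.1, the smallest that 3 against 3 libraries can reach (adjusted p = 0.3 over 3 ratios). This ratio was added after the data were seen. It ran from 1.16 to 1.88 when any 1 Control or EPD library was left out. In Control 2, where both members were low, the ratio lay between those of the other controls and of EPD.

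**Figure D2:**
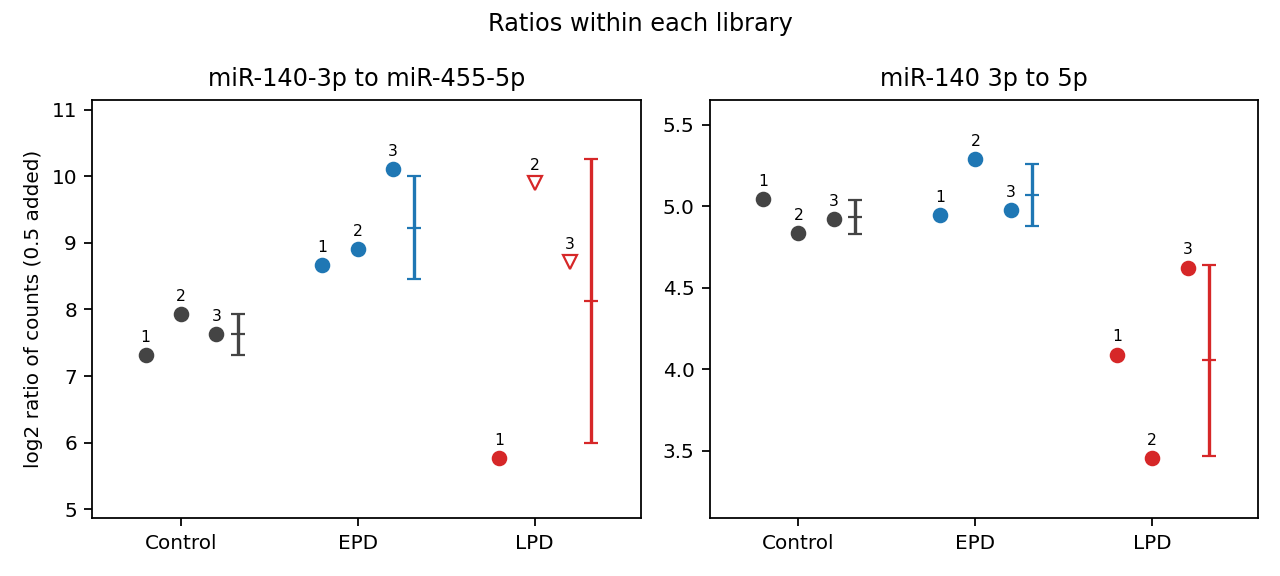
Log2 ratios of counts (0.5 added) within each library, for miR-140-3p to miR-455-5p and for the 3p to the 5p arm of miR-140; bars at the right of each group give the mean and SD (n = 3). Open triangles are LPD libraries with 0 counts of miR-455-5p, where the ratio rests on the added 0.5. EPD lies above Control in the left panel, 8.66 to 10.1 against 7.32 to 7.93.

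The arm ratio of miR-140 was steady outside LPD. miR-140-3p had 33.0, 28.6 and 30.3 counts per count of miR-140-5p in Control and 30.9, 39.1 and 31.5 in EPD (exact two-sided permutation p = 0.4, adjusted p = 0.4). The log2 ratio was 4.93 ± 0.11 and 5.07 ± 0.19 (SD, n = 3 each). The 3p arm thus had by far the larger count of this hairpin in every library. In LPD the ratio was 17.1, 11.1 and 26.1 (log2 4.06 ± 0.59), below every other library, but the 5p arm there had 65, 43 and 8 counts. For miR-455 both arms were of like abundance. The 3p arm had 0.831, 1.65 and 0.909 counts per count of the 5p arm in Control and 1.80, 1.55 and 1.61 in EPD (exact two-sided permutation p = 0.3, adjusted p = 0.4). Control 2 again sat with the EPD libraries, and without it the mean log2 ratio of Control turned from 0.10 to -0.20.

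In LPD, miR-140-3p had 3690, 2142 and 1378 CPM, with a mean of 2403 ± 1178 (SD, n = 3). That was 15.5-fold below Control (log2 fold change -3.95, SE 0.54) and 9.86-fold below EPD (-3.30, SE 0.53). The highest LPD library was 4.18-fold below the lowest control and 5.35-fold below the lowest EPD library. Among the 124 miRNAs with counts in all 9 libraries it had the most negative fold change against Control, and the third most negative against EPD. Among all 294 tested, which include miRNAs with 0 counts in LPD, its ranks from the lowest fold change were 75 and 77. These are the values, or share the libraries of the values, by which the miRNA was chosen. In LPD against Control 37.1% of the 294 miRNAs were called, 4.42% higher and 32.7% lower, and in LPD against EPD 36.7%, with 4.08% higher and 32.7% lower. The balance of directions also moved. Among miRNAs counted in all 9 libraries 16 were called higher and 22 lower against Control, and 17 and 18 against EPD. On counts per molecule these were 11 and 20, and 9 and 22. Lower values without overlap were seen for 41.8% of the 294 miRNAs against Control and for 45.6% against EPD. The comparisons share libraries, so neither supports another. The median log2 fold change of all tested miRNAs was -1.04 against Control and -0.92 against EPD, and the fold change of miR-140-3p less these medians was -2.91 and -2.38. That distance depends on which miRNAs set the median. In fits of the 124 miRNAs counted in all 9 libraries it was -3.76 and -3.21, without a filter -1.52 and -1.14, with limma-voom -2.07 and -1.68, and without LPD 3 -1.69 and -1.37.

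**Figure D3:**
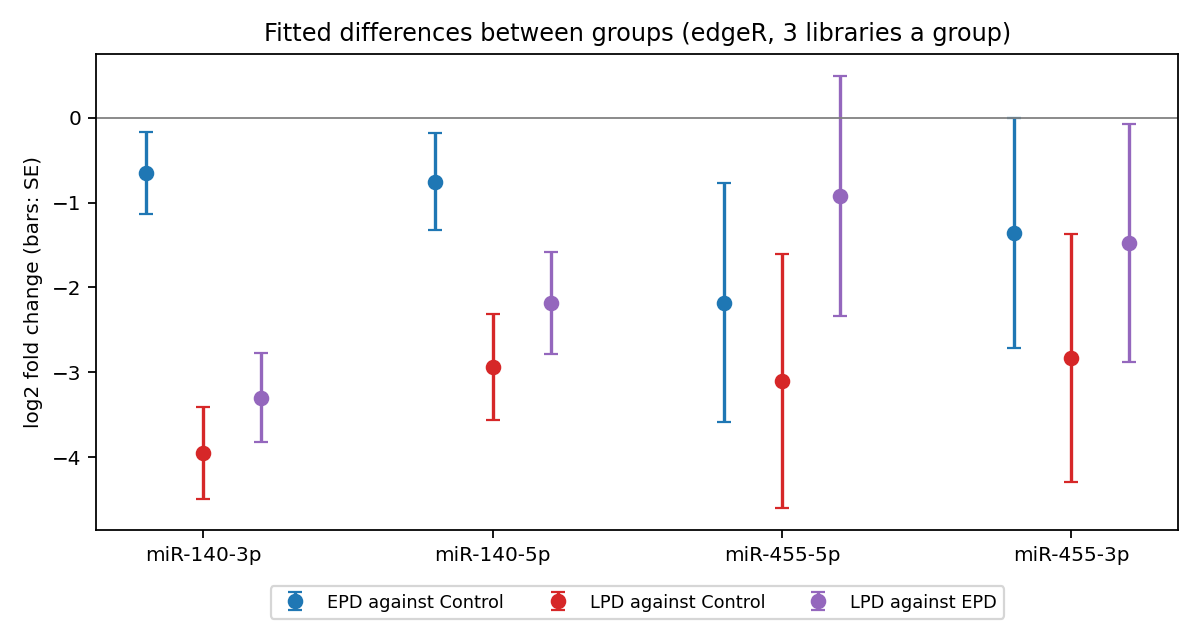
Log2 fold changes of the 4 arms in the 3 comparisons, with SE from the fit (3 libraries a group). The LPD differences of miR-140-3p lie at -3.95 and -3.30, and the bars of both miR-455 arms are wider than those of the miR-140 arms.

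For miR-455-5p the LPD level was not determined. The group had 66.2, 0 and 0 CPM, so LPD 1 lay above both the lowest control and every EPD library. The fitted log2 fold change was -3.11 (SE 1.50) against Control and -0.92 (SE 1.42) against EPD, and rested on whether LPD 1 was present. Without LPD 1 no count is left in the group, and the fitted values of -10.68 and -8.62 depend on the prior count and measure no fold. miR-455-3p had counts in the same library alone, 23, 0 and 0. It did not pass against Control (-2.83, SE 1.46, edgeR adjusted p = 0.174) or against EPD (-1.48, SE 1.41, edgeR adjusted p = 0.464). Against Control it passed with limma-voom (-4.52, adjusted p = 0.0481), and without LPD 1 it passed in both comparisons (edgeR adjusted p = 0.0131 and 0.0207) with no LPD count left.

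The estimated molecules behind these counts differed between the 2 hairpins. The miR-140-3p counts stood for an estimated 30.4, 9.70 and 17.0 molecules in the LPD libraries. At the mean Control level they would have stood for 306, 168 and 457, and at the mean EPD level for 195, 107 and 292. For miR-455-5p the mean Control level would have given only 1.67, 0.920 and 2.50 molecules, and the mean EPD level 0.368, 0.202 and 0.550. By this estimate, neither of its 2 empty LPD libraries taken singly can show a difference from the mean of either group. The 2 together were not tested. The same holds for miR-455-3p, with 1.58, 0.869 and 2.36 molecules at the Control level.

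**Figure D4:**
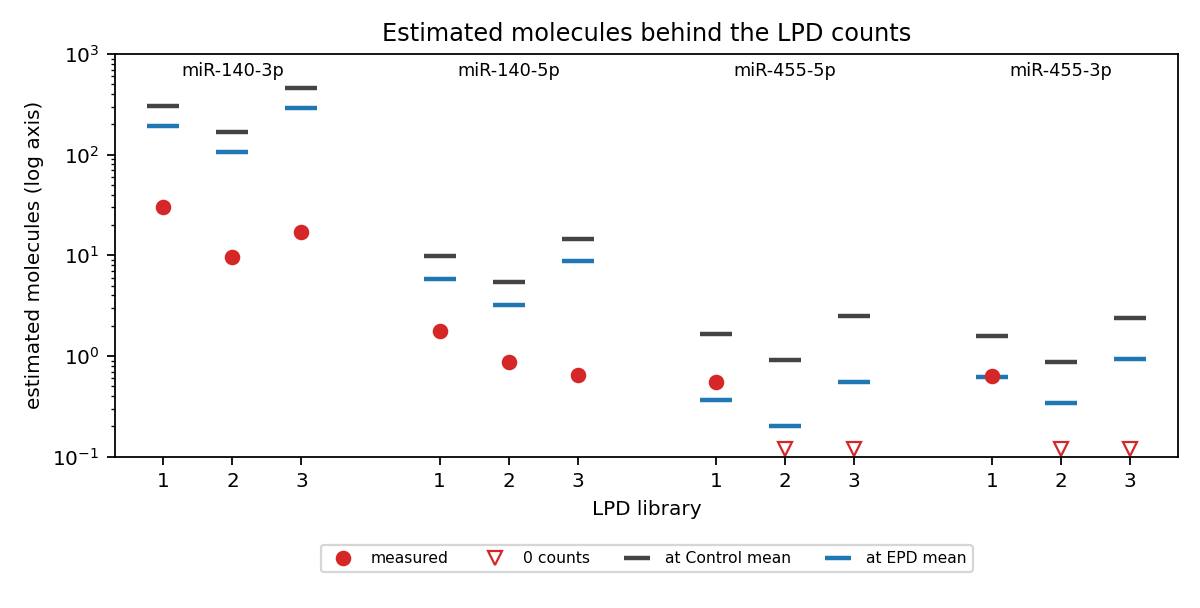
Estimated molecules behind the counts of each arm in the 3 LPD libraries (log axis), beside what the mean Control and EPD levels would have given there. Measured miR-140-3p (9.70 to 30.4) lies well below both marks, while for miR-455-5p all marks are at 2.50 molecules or fewer.

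miR-140-5p was lower in LPD. It had 215, 193 and 52.7 CPM, below every Control and EPD library. Of the 294 tested miRNAs, 41.8% lay lower without overlap against Control and 45.6% against EPD. The pair was chosen with the low LPD counts of miR-140-3p known. miR-140-5p comes from the same hairpin and libraries, so its p-values here are no separate evidence of a fall. Its log2 fold change was -2.94 against Control (SE 0.62, edgeR adjusted p = 0.00658) and -2.19 against EPD (SE 0.60, edgeR adjusted p = 0.0198). The first passed in all 19 alternatives. The second was lost without EPD 1 (-1.90, adjusted p = 0.0836), with limma-voom (adjusted p = 0.0726), on counts per molecule (0.0672) and when only the 2 groups were fitted (0.0542). Its LPD counts stood for 1.77, 0.877 and 0.649 estimated molecules, against 9.81, 5.40 and 14.7 at the mean Control level. By that estimate the call rests on a handful of molecules in LPD.

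Other miRNAs, of blood cells, liver, muscle and neurons, were measured in the same libraries. The summed CPM of the 5 red cell miRNAs was 84573 to 169287 in Control, 153209 to 394876 in EPD and 236026 to 372968 in LPD. Most of it was miR-16-5p (means 128014, 216430 and 283010). All 5 overlapped between EPD and Control. In LPD miR-16-5p, miR-486 and miR-144-3p were higher than Control without overlap, as were 6.46% of the 294 tested, and miR-451-5p and miR-144-5p overlapped. Only miR-486 was called there by edgeR. The summed CPM of the 5 platelet and leukocyte miRNAs was 53405 to 65802 in Control. It was higher without overlap in EPD (86857 to 99652) and in LPD (80513 to 116400). Singly, only miR-150-5p in EPD and only miR-223-3p in LPD were higher than Control without overlap. The share of all 294 so placed was 6.46% in LPD and was not counted in EPD. miR-142-3p went the other way in EPD (log2 fold change -0.01) and miR-142-5p in LPD (-0.17). By edgeR's test 0 of the 5 were called in EPD and 1 in LPD against Control, where 37.1% of all 294 were. The summed CPM of the 5 hepatocyte miRNAs was 29555 to 697423 in Control, the highest being Control 2. It was 21048 to 56426 in EPD and 21543 to 47027 in LPD, where miR-802-5p had no count. All 4 muscle miRNAs were detected in Control, with sums of 1423 to 7709 CPM, against 322 to 4953 in EPD and 715 to 10714 in LPD, where miR-133b-3p had no count. The 3 neuronal miRNAs (miR-124-3p, miR-9a-5p and miR-128-3p) summed to 4852 to 9214 CPM in Control, 3790 to 14643 in EPD and 2294 to 3455 in LPD. Nearly all of each sum was miR-128-3p, with means of 6709, 8453 and 3006 CPM. It was not called in LPD against Control (edgeR adjusted p = 0.0994). miR-9a-5p, with means of 30.3, 18.6 and 39.6 CPM, went the other way there (log2 fold change 0.30), with counts in LPD 3 alone. miR-124-3p had no count in Control or LPD. The part of these cells and tissues in the EPD and LPD values of the miR-140 and miR-455 arms was not tested.

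Other miRNAs tied to cartilage and chondrogenesis in the literature were called about as often as all miRNAs tested. Of 33 listed, 32 were in the matrix and 29 could be tested, and 0 of 29 were called by edgeR in EPD against Control (median log2 fold change -0.11, against -0.05 over all 294). The call of miR-199a-3p under the 3 alternatives given above was of a list member. In LPD against Control 1 rose and 9 fell, a median of -0.93 beside -1.04 over all. That is 10 of 29, near the 37.1% of all tested. Against EPD 2 rose and 9 fell, with a median of -0.85 beside -0.92, or 11 of 29 beside the 36.7% of all tested. Over the 19 alternatives the list's calls ran from 4 to 13 against Control and from 6 to 18 against EPD.

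The list members that passed in all 19 alternatives in LPD against Control were 4. miR-125b-5p, which restrains ADAMTS4 in chondrocytes, fell from 13621 ± 1704 to 2179 ± 398 CPM (log2 fold change -2.64, SE 0.25, edgeR adjusted p = 5.72e-04). miR-199a-3p fell from 39038 ± 15664 to 11214 ± 2712 (-1.80, SE 0.33, edgeR adjusted p = 0.00522). miR-29a-3p, a repressor of collagen mRNAs, dropped from 39184 ± 20227 to 11006 ± 3577 (-1.83, SE 0.41, edgeR adjusted p = 0.00828). miR-92a-3p rose from 2138 ± 230 to 6029 ± 2359 (1.50, SE 0.36, edgeR adjusted p = 0.0102). None of these 4 overlapped between the groups, as was so for 41.8% of the 294 in the lower and 6.46% in the higher direction.

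The other 6 calls were less secure. miR-27b-3p (-0.87) was lost in 11 of 19 alternatives, among them those without Control 2, EPD 1, LPD 1 or LPD 3. miR-146a-5p (-1.15) was lost in 8 and miR-29b-3p (-1.72) in 6, both without Control 2, LPD 1 or LPD 2. miR-34a-5p, induced by p53, had 0, 0 and 12 counts in LPD and was lost in 8 of 18, among them any Control or EPD library or LPD 2 left out. miR-138-5p and miR-193b-3p had no count in LPD and Control means of only 19.2 and 7.74 CPM, below the 81.3 to 221 CPM of 1 estimated molecule in LPD; the call of miR-193b-3p was lost without LPD 1 or LPD 2. In LPD against EPD the calls were miR-125b-5p, miR-29a-3p, miR-29b-3p, miR-146a-5p, miR-27a-3p, miR-27b-3p, miR-34a-5p, miR-138-5p and miR-193b-3p, lower, and miR-92a-3p and miR-143-3p, higher. Of these 11, miR-125b-5p, miR-29a-3p, miR-29b-3p and miR-146a-5p passed in all 19 alternatives. miR-27a-3p was lost without any EPD library, LPD 1 or LPD 2, miR-27b-3p without EPD 1, LPD 1 or LPD 3, and miR-34a-5p without EPD 2 or EPD 3. miR-138-5p and miR-193b-3p were lost without LPD 1, and miR-92a-3p without EPD 2, EPD 3, LPD 1 or LPD 2. miR-143-3p, a smooth muscle miRNA that also marks mesenchymal cells, had 18879 ± 3391 CPM in EPD and 36025 ± 4194 in LPD. Its call (log2 fold change 0.93, edgeR adjusted p = 0.0415) was lost in 10 of 19 alternatives, among them any EPD library, Control 1, Control 3, LPD 1 or LPD 2 left out.

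The miRNAs whose pattern was most like that of the members were found by the root mean square difference of centred log2 CPM, which no library scaling changes. Only miRNAs with counts in every library used were compared with a member. Over all 9 libraries miR-140-5p was nearest to miR-140-3p of 123 compared (0.54 log2 units, against a median of 1.87), followed by miR-200b-3p (0.63) and miR-30b-5p (0.72). Over the 6 Control and EPD libraries miR-140-5p was again nearest of 289 (0.14, median 0.76). Next were miR-181b-1-3p (0.21) and miR-218a-5p (0.27). miR-218a-5p had 223, 106 and 215 CPM in Control and 115, 116 and 128 in EPD, with the same low Control 2 as miR-140-3p.

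miR-455-5p kept other company. Over the 6 Control and EPD libraries its nearest were miR-322-3p (0.44), miR-455-3p (0.44) and miR-503-3p (0.50), against a median of 1.44 over 289. miR-322-3p had 309, 62.6 and 230 CPM in Control and 63.5, 23.9 and 22.0 in EPD, close to the values of miR-455-5p itself. miR-140-3p was only 18th, at 0.93. Over all 9 libraries, where the 2 empty LPD libraries weigh, the nearest were miR-140-3p (1.27), miR-542-5p (1.31) and miR-30b-5p (1.31), against a median of 2.33. miR-455-3p, with 0 counts in LPD 2 and LPD 3, was not among the 124 compared, so this ranking leaves it out. Low counts add noise to these distances, and the likeness is a description.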

How the data were processed

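The authors deposited raw counts of reads for each mature miRNA, as whole numbers per the file headers, with 0 values differing between the matrix and the single-library files. The genome build was mRatBN 7.2, per the submitters' processing notes. The choice of aligner, counting tool, annotation and molecular identifier handling is not given in the sources used here. RNA came from a miRNeasy serum kit and libraries from the QIAseq miRNA kit, per the labels' protocols. Groups and replicate numbers come from the sample titles. Replicate pairs differed in counts beyond sampling noise (chi-square over degrees of freedom 30.7 or more). No label ties a sample to an animal, so p-values reflect only how far these samples spread, which may be technical. No label gives a batch.

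miRNAs with at least 10 counts by edgeR's filterByExpr (15 in total) were kept, 294, including both members. miR-455-5p passed through its Control and EPD counts. TMM scaling, edgeR 4.0.16's robust quasi-likelihood fit of all 3 groups without covariates and Benjamini-Hochberg adjustment at 0.05 followed, with SE taken from the log2 fold change and its F. DESeq2 1.42.0 and limma 3.58.1 were alternatives, as were other scalings and filters, counts per molecule, a replicate block and leaving out each library. Members, lists and comparisons were chosen with earlier results of these data known. Named miRNAs are the 4 arms, the called members of the cartilage list (from general knowledge) and the 3 most alike to each member. Replicate numbers did not pair samples.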

Additional observations from a re-analysis of the deposited data

How the results depend on the processing

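Both members kept the sign of every fold change in all alternatives run, and miR-140-3p in LPD ranged from -4.15 to -3.47 against Control and from -3.61 to -2.93 against EPD. Less the median of all tested miRNAs, miR-455-5p in LPD against EPD did not keep its sign. That difference was -0.003 as reported, 1.17 without LPD 3 and -6.98 without LPD 1, where no LPD count is left. Over miRNAs with counts in all 9 libraries neither miR-455 arm could be fitted. RLE factors moved the median of all tested miRNAs in LPD against Control from -1.04 to -0.83, library totals to -0.86 and scaling without miR-122-5p and miR-16-5p to -0.92. Without a filter that median was -2.34, with limma-voom -1.74 and without LPD 3 -1.78. The fold change of miR-140-3p less the median was -2.91 as reported and ran from -3.76 (miRNAs counted in all 9 libraries) to -1.52 (no filter). In EPD against Control miR-140-3p ran from -0.89 to -0.34 and miR-455-5p from -2.46 to -1.69 with 1 library left out.

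In EPD against Control 0 miRNAs were called, and 1, miR-199a-3p, among the miRNAs counted in all 9, with DESeq2 and without Control 2 (leaving out 1 library gave 0 to 1). In LPD against Control, 109 were called, but 38 over miRNAs with counts in all 9 libraries, 31 on counts per molecule and 52 when only the 2 groups were fitted. In LPD against EPD, 108 became 35, 31 and 67 under the same settings. With DESeq2 26 were higher and 94 lower against Control, and 31 and 91 against EPD, where edgeR called 13 and 96, and 12 and 96. Without LPD 3 these were 24 and 116, and 20 and 114. Against Control 7 were higher without Control 1 and 6 without Control 3, and against EPD 4 without EPD 2, 7 without EPD 3 and 8 without EPD 1. Of the cartilage list 10 were called in LPD against Control, but 5 with counts in all 9 libraries, 6 on counts per molecule, 4 in the fit of 2 groups and 6 without LPD 2. Against EPD 11 were called, but 18 with DESeq2, 7 on counts per molecule, 6 in the fit of 2 groups and 7 without EPD 2 or EPD 3. Fewer miRNAs or libraries entered some of these fits; the cause was not otherwise tested.

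Leaving out 1 library moved miR-455-5p between -10.68 and -2.43 against Control and between -8.62 and -0.37 against EPD, and miR-455-3p between -10.60 and -2.16 and between -9.37 and -0.93, the low ends without LPD 1, where no LPD count is left. miR-455-3p against Control was -4.52 with limma-voom and then passed. miR-140-5p in LPD against EPD no longer passed at -2.48 (limma-voom), -2.10 (counts per molecule) and -2.02 (only the 2 groups), and ran from -2.42 to -1.67 with 1 library left out. The mean arm difference of miR-455 in Control was 0.10 and ran from -0.20 to 0.29, negative without Control 2. The cause of these shifts was not tested.

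The replicate numbers are shared by the groups, but same-numbered libraries did not deviate together (correlations of -0.11 to 0.09, 0 of 9 pairs over 0.1, and 1 of 9 libraries closest to its own number). With the replicate number as a block, 0, 101 and 101 miRNAs were called in the 3 comparisons, miR-140-3p stood at -0.56 in EPD and -3.95 in LPD against Control, and miR-455-5p at -2.05 and -4.24.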
